A study of Ovis aries with 26 samples.

Results

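Importin genes were followed from the sheep oocyte to the expanded blastocyst: KPNA7, KPNA2, KPNA3, KPNA4, KPNA1 and KPNA6, which code for importin alpha adaptors, and KPNB1, which codes for importin beta 1. The genes were taken by their symbols from a table of 30186 genes. All 7 were in it, and all 7 passed the filter on low values that left 15766 genes for testing. KPNA7 was selected as the oocyte form on its measured levels in these same libraries, so its levels, and whatever sets it against the other members, are a description with no test. The other 6 members are called the somatic forms here, and their levels were compared stage against stage in a fit of all genes.

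Importin alpha proteins bind the classical nuclear localization signal of a cargo protein and link it to importin beta 1, which carries the complex through the nuclear pore. In the nucleus the GTP-bound form of the small GTPase Ran takes the complex apart, and the exportin CSE1L returns importin alpha to the cytoplasm. Mammals have several importin alpha genes that differ in cargo preference: KPNA2 and KPNA7 are close relatives, KPNA3 and KPNA4 form another subfamily, and KPNA1, KPNA5 and KPNA6 a further one. KPNA7 is known from cattle, pig and mouse as a form found mainly in oocytes and early embryos.

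In all, 26 libraries cover 8 stages. MII stands for mature oocytes in metaphase II (2 libraries). Then come embryos of 2 cells (2C, 4 libraries), of 4 cells (4C, 3 libraries), of 8 cells (8C, 4 libraries) and of 16 cells (16C, 3 libraries), followed by Morula (3 libraries), early blastocysts (EarlyB, 3 libraries) and expanded blastocysts (ExpB, 4 libraries). Embryos came from mature oocytes fertilized in vitro with capacitated sperm and were kept in culture, with no treatment and no genetic change named in the labels. The sources used here do not state the breed, the donor animals or how many oocytes or embryos went into a library. Replicates are not described as separate animals or cultures, and the p-values reflect only the variation among the libraries at hand, which may be technical. Poly(A) RNA was copied by Smart-seq2, which amplifies full-length cDNA from very little RNA. Levels are FPKM, read fragments scaled to the length of the gene and to the fragments assigned in the library. A message whose poly(A) tail was lengthened or shortened cannot be told apart from one that was made or lost, and in a whole embryo fewer cells of a type and less RNA per cell cannot be told apart.

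Depth was between 16.0 and 35.6 per library in units of 1e6 reads, lowest in EarlyB and ExpB. The defining oocyte markers were present in MII, where all 10 genes of the list were at 1 FPKM or more in both libraries. They summed to 11.3 to 24.5 FPKM in ExpB and 5634 to 6454 FPKM in MII. All 7 trophectoderm markers, CDX2 and KRT8 among them, were at 1 FPKM or more in every EarlyB library and 6 of them in every ExpB library (their sum was 3328 to 7510.2 FPKM in ExpB and 5.59 to 6.09 FPKM in MII). SOX2, NANOG and KLF17 of the inner cell mass list were at 0 in MII. POU5F1 and NANOG were at 1 FPKM or more in every ExpB library, but SOX2 and KLF17 were not. In EarlyB POU5F1, SOX2 and KLF17 reached 1 FPKM in every library, but NANOG did not. The list, of which 4 of 5 genes were in the table, summed to 0.723 to 1.6 FPKM in MII, 54.2 to 73.9 FPKM in 16C and 43.9 to 66.6 FPKM in ExpB. Cumulus and granulosa markers, of which 14 of 16 were in the table, summed to 42.1 to 57.5 FPKM in MII, 78.1 to 271 FPKM in 2C, 167 to 582 FPKM in 4C, 29.7 to 163 FPKM in 8C, 34.8 to 130.4 FPKM in 16C, 41.8 to 86.5 FPKM in Morula, 264 to 301 FPKM in EarlyB and 738 to 1191 FPKM in ExpB. AMH of that list was at 0 in MII and 4C, FSHR in EarlyB and GREM1 in ExpB. TNFAIP6, LUM, DCN and VCAN were at 1 FPKM or more in every library from MII to 8C, and LUM, DCN and VCAN in every 16C library too. FSHR, STAR and CYP11A1 were also at 1 FPKM or more in every 4C library, and INHA and PTGS2 were the members at 1 FPKM or more in every ExpB library. Sperm markers summed to at most 0.661 FPKM up to 16C and to 9.03 to 13.5 FPKM in Morula and EarlyB, where PRM2 was at 1 FPKM or more in every library, while blood markers summed to at most 21.1 FPKM in any library. One library stood apart from its stage: replicate 3 of 16C had a mean correlation across genes of 0.845 with the Morula libraries, against 0.734 and 0.753 for replicates 1 and 2 of 16C, and its mean correlation with its own stage was 0.918. Each printed difference of a gene that involves 16C is given with and without it.

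KPNA7 was the most abundant importin message from MII to 16C and the least abundant in ExpB. It had 3075 and 1523 FPKM in the MII libraries, 765, 939, 853 and 980.2 FPKM in 2C, 675, 878 and 717 FPKM in 4C, 1202, 1193, 1308 and 1723 FPKM in 8C and 1139.5, 1280.2 and 622 FPKM in 16C. In the later embryos it had 68.7, 176 and 151 FPKM in Morula, 15.5, 35.04 and 13.04 FPKM in EarlyB and 0.953, 0.11, 1.16 and 0.504 FPKM in ExpB. The lower MII library was below the highest 8C library, all Morula libraries lay below all 16C libraries, all EarlyB libraries below all Morula libraries, and all ExpB libraries below all EarlyB libraries. The ExpB mean was 0.683 ± 0.471 FPKM (SD, n = 4) and the MII mean 2299 ± 1097 FPKM (SD, n = 2), so the ratio of MII to ExpB was 3368.

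Ordered by mean, the KPNA7 levels ran MII, 8C, 16C, 2C, 4C, Morula, EarlyB and ExpB. Neighbours in that order overlapped from MII down to 4C, so no step between neighbours is resolved there by these libraries, and the 3 steps below 4C were each free of overlap. Further apart in the order, both MII libraries were above every 2C and 4C library. The 8C mean of 1357 ± 249.7 FPKM (n = 4) was above the 4C mean of 757 ± 107 FPKM (n = 3), with every 8C library above every 4C library. As differences on the log2(FPKM + 1) scale, which understates changes of low values, KPNA7 was -1.30 in 2C against MII and 0.83 in 8C against 4C. It was -2.97 in Morula against 16C, -2.60 in EarlyB against Morula, -3.64 in ExpB against EarlyB and -9.08 in ExpB against 2C. Without replicate 3 of 16C, the lowest of its stage at 622 FPKM, the difference of Morula against 16C was -3.29.

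Among the 30186 genes of a library, KPNA7 ranked 15 and 28 by FPKM in MII, between 21 and 31 in 8C and between 32 and 128 in 16C. Its rank was between 568 and 1291 in Morula, 1911 and 4251 in EarlyB, and 10036 and 15543 in ExpB. The reads behind these values were 149939 and 89982 in the MII libraries, or 0.551% and 0.273% of the reads counted there. In ExpB 5 to 51 reads per library carried the value, so the ExpB levels have wide counting error, while every somatic form had at least 600 reads in each ExpB library.

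**Figure D1:**
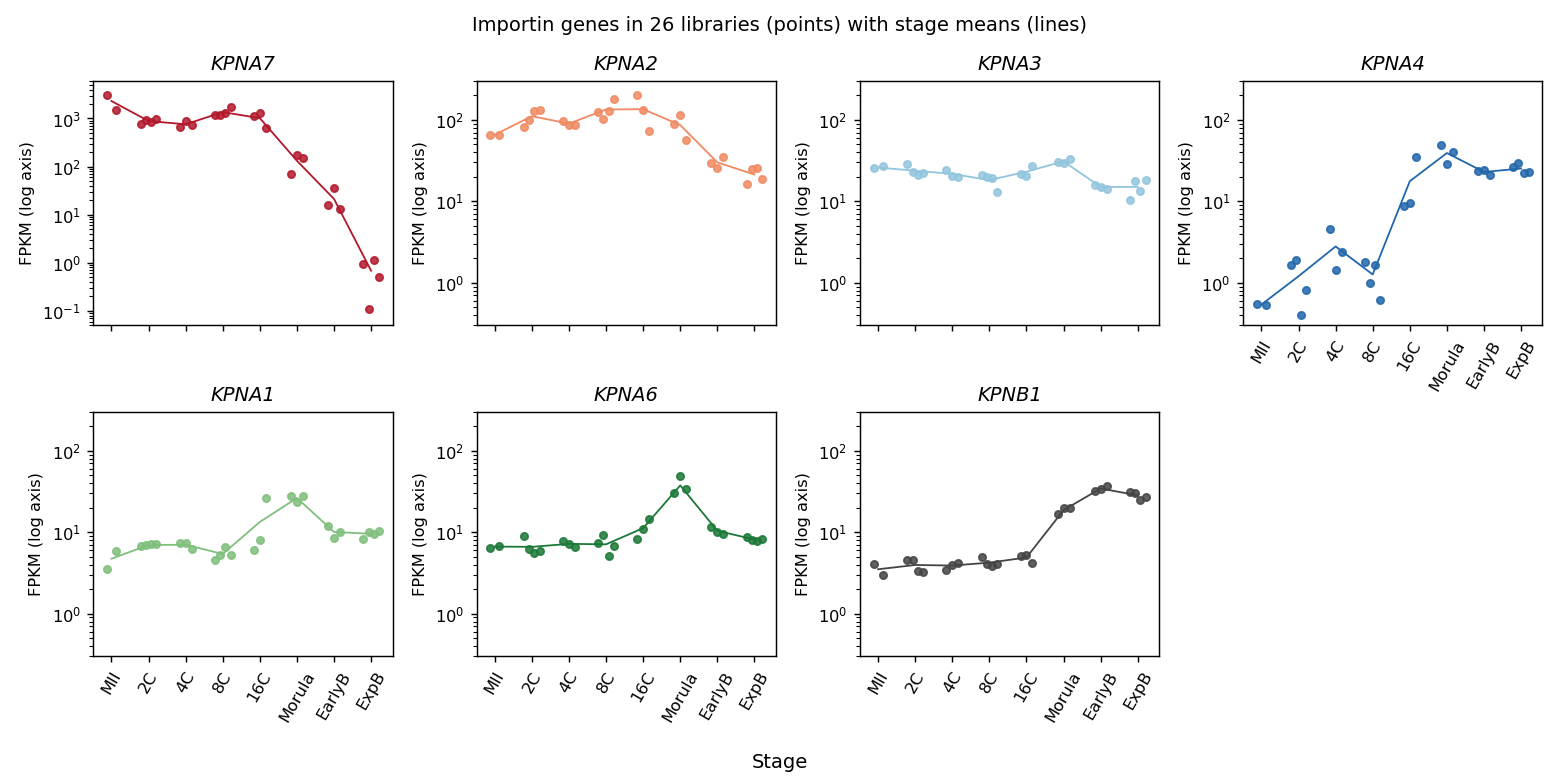
FPKM of each importin gene (log axis) by stage, MII to ExpB, with points for the 26 libraries and lines through the stage means. KPNA7, on its own axis range, stays at 622 FPKM or more up to 16C and lies below 1.2 FPKM in ExpB. KPNA4 and KPNB1 are high in the latest stages, and KPNA1, KPNA3, KPNA4 and KPNA6 have their highest mean in Morula.

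KPNA2, a close relative of KPNA7, came next to it by mean level from MII to Morula and fell in the blastocyst. It had 65.97 and 65.6 FPKM in MII, 82.6, 99.04, 129 and 133 FPKM in 2C, 97.5, 87.1 and 85.5 FPKM in 4C and 127, 104, 128 and 179 FPKM in 8C. Further on it had 201, 132 and 72.5 FPKM in 16C, 89.3, 114 and 56.1 FPKM in Morula, 29.5, 25.3 and 35.5 FPKM in EarlyB and 16.3, 24.6, 25.6 and 18.9 FPKM in ExpB. Every blastocyst library lay below every library of the earlier stages, and the EarlyB and ExpB ranges overlapped. In limma's test, with Benjamini-Hochberg adjustment over all genes tested, KPNA2 fell by 1.45 on the log2(FPKM + 1) scale in EarlyB against Morula (SE 0.30, adjusted p = 4e-04), with means of 30.1 ± 5.11 FPKM in EarlyB and 86.4 ± 28.95 FPKM in Morula (SD, n = 3 each). Against 2C, ExpB was lower by a difference of -2.32 (SE 0.26, adjusted p = 2.5e-08). The 2C mean of 111 ± 24.3 FPKM (n = 4) stood above both MII libraries, a difference of 0.72 (SE 0.32, adjusted p = 0.17) that did not pass the test.

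KPNA3 had the narrowest range of stage means. It had 25.3 and 26.8 FPKM in MII, 28.8, 22.7, 20.98 and 22.4 FPKM in 2C, 24.4, 20.7 and 20.1 FPKM in 4C, 20.9, 19.9, 19.1 and 13.02 FPKM in 8C and 21.4, 20.6 and 27.4 FPKM in 16C. In Morula it had 30.8, 29.3 and 32.9 FPKM, in EarlyB 15.8, 14.8 and 14.4 FPKM and in ExpB 10.5, 17.998, 13.4 and 18.2 FPKM. The Morula libraries were above all other libraries of the series, and the ratio of its highest to its lowest stage mean was 2.07, the smallest among the 7 members. No comparison called KPNA3 under the threshold used here, an adjusted p under 0.05 with a difference of at least 1 in size. EarlyB against Morula lay just outside it with a difference of -0.9988 (SE 0.20, adjusted p = 0.00026), and ExpB against 2C had a difference of -0.65 (SE 0.17, adjusted p = 0.0017). The EarlyB difference passed with a pseudocount of 0.1 (-1.04) and with each of 3 other scalings of the libraries (-1.02 to -1.13), and also without replicate 1 (-1.0024) or 2 (-1.04) of Morula or replicate 1 of EarlyB (-1.03). The ExpB difference passed on the TPM scale (-1.24).

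KPNA4, of the same subfamily as KPNA3, was low in the oocyte and rose at 16C and again in Morula. It had 0.553 and 0.528 FPKM in MII, 1.68, 1.92, 0.403 and 0.815 FPKM in 2C, 4.51, 1.45 and 2.41 FPKM in 4C and 1.78, 1.003, 1.66 and 0.622 FPKM in 8C, where 50 to 588 reads per library carried these values. It then had 8.701, 9.61 and 34.6 FPKM in 16C, 48.96, 28.7 and 39.9 FPKM in Morula, 23.4, 24.4 and 21.03 FPKM in EarlyB and 26.3, 29.9, 22.1 and 22.997 FPKM in ExpB. Every library from 16C on was above every earlier library, and replicate 3 of 16C lay inside the Morula range while replicates 1 and 2 lay below it. The difference of 16C against 8C was 2.80 (SE 0.36, adjusted p = 5.3e-06) by limma, and without replicate 3 of 16C it was 2.20 with an adjusted p of 2.2e-05. Morula against 16C gave 1.35 (SE 0.38, adjusted p = 0.0037), and 1.95 with an adjusted p of 1.4e-05 without that replicate. Fitted on the libraries of the stages compared alone, these steps missed the threshold, with adjusted p = 0.052 for 16C against 8C and 0.10 for Morula against 16C. All EarlyB libraries lay below all Morula libraries, with a limma difference of -0.72 (SE 0.38, adjusted p = 0.13) in the fit of all stages that did not pass. ExpB was 25.3 ± 3.55 FPKM and 2C 1.202 ± 0.713 FPKM (SD, n = 4 each), a difference of 3.63 (SE 0.33, adjusted p = 7.7e-10) and a ratio of means of 21.05.

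Cumulus and granulosa markers varied among the same early libraries. In 2C the summed cumulus and granulosa markers were 225, 271, 113 and 78.1 FPKM in replicates 1 to 4, where KPNA4 had 1.68, 1.92, 0.403 and 0.815 FPKM, highest in the 2 libraries with the highest sums and lowest in replicate 3, which did not have the lowest sum. In 4C the sums were 582, 172 and 167 FPKM, where KPNA4 had 4.51, 1.45 and 2.41 FPKM, highest with the highest sum but higher in replicate 3 than in replicate 2, whose sum was above that of replicate 3. In 8C the sums were 57.6, 121, 163 and 29.7 FPKM in replicates 1 to 4, where KPNA4 had 1.78, 1.003, 1.66 and 0.622 FPKM. The lowest sum and the lowest KPNA4 value were both in replicate 4 of 8C, but the highest KPNA4 value was in replicate 1, whose sum was lower than those of replicates 2 and 3. The part of these markers in the KPNA4 levels was not tested. In 16C, where KPNA4 was higher than in 8C, the sums were 34.8, 130.4 and 83.7 FPKM and lay within the 8C range.

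By mean, KPNA1 and KPNA6 were highest in Morula and lower on both sides of it, as were KPNA3 and KPNA4. KPNA1 had 3.56 and 5.92 FPKM in MII, 6.702, 6.96, 7.097 and 7.14 FPKM in 2C, 7.43, 7.41 and 6.27 FPKM in 4C and 4.604, 5.199, 6.55 and 5.28 FPKM in 8C. It had 6.11, 7.99 and 26.1 FPKM in 16C, 27.8, 23.6 and 27.7 FPKM in Morula, 11.9, 8.44 and 9.98 FPKM in EarlyB and 8.35, 10.2, 9.45 and 10.3 FPKM in ExpB. The Morula libraries overlapped with 16C only through replicate 3 of 16C, at 26.1 FPKM, and EarlyB lay wholly below Morula. By limma the difference of Morula against 16C was 1.18 (SE 0.30, adjusted p = 0.0016), or 1.77 with an adjusted p of 4.2e-08 without replicate 3 of 16C. That call was lost with the TPM scale (0.86), median-ratio scaling (0.95), quantile normalization (0.96), a fit of these 2 stages alone (adjusted p = 0.12) and without replicate 1 (0.81) or replicate 2 (0.98) of 16C. EarlyB against Morula was lower by a difference of -1.31 (SE 0.30, adjusted p = 0.0011). In 16C against 8C the difference of 0.92 (SE 0.28, adjusted p = 0.028) was under the size threshold. It was 0.33 with an adjusted p of 0.29 without replicate 3 of 16C, and it passed without replicate 1 (1.29) or replicate 2 (1.12) of 16C.

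KPNA6 had 6.47 and 6.88 FPKM in MII, 8.89, 6.22, 5.49 and 5.92 FPKM in 2C, 7.84, 7.23 and 6.56 FPKM in 4C and 7.31, 9.19, 5.14 and 6.84 FPKM in 8C. Later it had 8.38, 10.995 and 14.4 FPKM in 16C, 30.04, 48.9 and 34.01 FPKM in Morula, 11.7, 10.01 and 9.56 FPKM in EarlyB and 8.69, 7.98, 7.72 and 8.24 FPKM in ExpB. All 3 Morula libraries were above every other library of the series, and the stages from MII to 8C overlapped with one another. KPNA6 rose in Morula against 16C by 1.66 (SE 0.21, adjusted p = 6.2e-07), or 1.84 without replicate 3 of 16C, and fell in EarlyB against Morula, with a difference of -1.73 (SE 0.21, adjusted p = 8e-07), both by limma. Its ExpB mean of 8.16 ± 0.413 FPKM and its 2C mean of 6.63 ± 1.54 FPKM (SD, n = 4 each) differed by 0.28 (SE 0.18, adjusted p = 0.17), which did not pass.

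KPNA5, which shares the subfamily of KPNA1 and KPNA6 and was not among the 7 genes, was low throughout. It had 0.0295 and 0.25 FPKM in MII, 0.479, 0.748 and 0.594 FPKM in 16C, 4.46, 1.88 and 3.77 FPKM in Morula and 2.05, 1.98, 2.41 and 2.28 FPKM in ExpB. The Morula libraries were all above the 16C libraries, with a limma difference of 1.39 (SE 0.20, adjusted p = 2.3e-06) (1.39 without replicate 3 of 16C), and ExpB was above 2C by 1.37 (SE 0.17, adjusted p = 1.4e-07). Quantile normalization brought both under the size threshold (0.90 and 0.99).

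KPNB1, the importin beta 1 gene, rose in Morula and was high in both blastocyst stages. It had 4.08 and 2.96 FPKM in MII, 4.61, 4.62, 3.37 and 3.27 FPKM in 2C, 3.48, 3.997 and 4.24 FPKM in 4C, 4.92, 4.09, 3.88 and 4.06 FPKM in 8C and 5.15, 5.32 and 4.24 FPKM in 16C. It had 16.6, 19.9 and 19.7 FPKM in Morula, 32.03, 34.5 and 37.1 FPKM in EarlyB and 31.6, 30.3, 24.8 and 26.8 FPKM in ExpB. The 16 libraries up to 16C lay between 2.96 and 5.32 FPKM and the 10 later ones between 16.6 and 37.1 FPKM, with no overlap. Replicate 3 of 16C, at 4.24 FPKM, was the lowest of its stage for KPNB1, unlike for KPNA1 and KPNA4. The difference of Morula against 16C was 1.74 (SE 0.16, adjusted p = 7.7e-09) by limma, and 1.66 without that replicate. EarlyB was above Morula in every library, but the difference of 0.85 (SE 0.16, adjusted p = 0.00018) was under the size threshold, which it passed with quantile normalization (1.08). ExpB at 28.4 ± 3.09 FPKM was 7.16 times 2C at 3.97 ± 0.749 FPKM (SD, n = 4 each), a difference of 2.57 (SE 0.14, adjusted p = 1.1e-13).

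Counted over the 6 somatic forms, 7 of the 8 calls in successive stages fell in the 2 comparisons that involve Morula, where the share of all tested genes called was high too. In 2C against MII, where 4.44% of all genes tested were called higher and 2.01% lower, limma called 0 of the 6, with 1 of them at an unadjusted p under 0.05. In 4C against 2C (0.00634% higher and 0% lower) it called 0 of 6 with 1 at an unadjusted p under 0.05, and in 8C against 4C (0.577% higher and 0.33% lower) 0 of 6 with 0 at that level. KPNA4 was the 1 member called higher in 16C against 8C, against a background of 5.54% higher and 2.01% lower. In Morula against 16C, 4 of 6 were called higher (KPNA1, KPNA4, KPNA6 and KPNB1) and 0 lower, where 28.1% of all genes were higher and 15% lower. In EarlyB against Morula, KPNA1, KPNA2 and KPNA6 were called lower and 0 higher, against 14.7% higher and 12.4% lower. ExpB against EarlyB gave 0 of 6, with 0 at an unadjusted p under 0.05, where 4.65% were higher and 13.1% lower. ExpB against 2C gave KPNA4 and KPNB1 higher and KPNA2 lower, against 30.7% higher and 23.6% lower.

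The median difference of the 6 somatic forms was 1.27 in Morula against 16C (1.71 without replicate 3 of 16C), where that of all genes tested was 0.32, and -1.15 in EarlyB against Morula, where that of all genes was 0.03. For ExpB against 2C the medians were 0.34 for the 6 genes and 0.23 for all genes. These are log2(FPKM + 1) differences and describe the 6 genes chosen here. The 5 somatic forms with a called difference kept its sign under the 3 other scalings of the libraries.

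**Figure D2:**
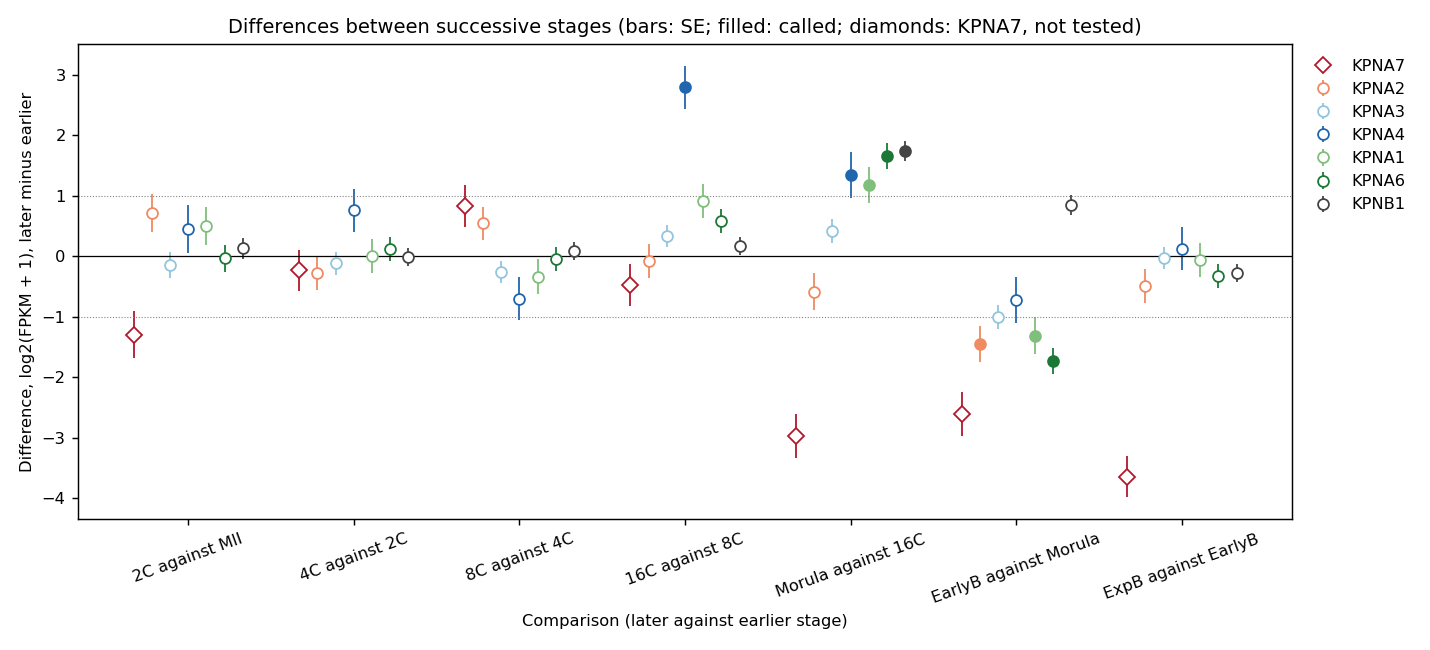
Differences of the 7 importin genes in the 7 comparisons of successive stages (later minus earlier, log2(FPKM + 1) scale), with bars for the standard error, filled circles for called differences of the somatic forms, and open diamonds for KPNA7, which was not tested. KPNA1, KPNA4, KPNA6 and KPNB1 lie above 1 in Morula against 16C, where KPNA7 lies at -2.97, and KPNA1, KPNA2 and KPNA6 lie below -1 in EarlyB against Morula.

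Set against one another per length, the importin alpha messages were nearly all KPNA7 in MII and a mixture of the 5 somatic importin alpha forms in ExpB. KPNA7 made up 95.2 ± 2.32% of the summed importin alpha FPKM in MII, 85.5 ± 1.37% in 2C, 85.3 ± 2.51% in 4C, 89.1 ± 0.618% in 8C and 82.6 ± 4.797% in 16C (SD over libraries). Its share was 23.2%, 41.9% and 44.2% in the Morula libraries, 14.4%, 29.7% and 12.6% in EarlyB, and 1.34%, 0.121%, 1.47% and 0.636% in ExpB. The Morula and EarlyB ranges overlapped, and all other steps from 16C on were free of overlap. Replicate 3 of 16C had the lowest share before the morula, 78.0%, and the 16C mean without it was 84.9%.

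**Figure D3:**
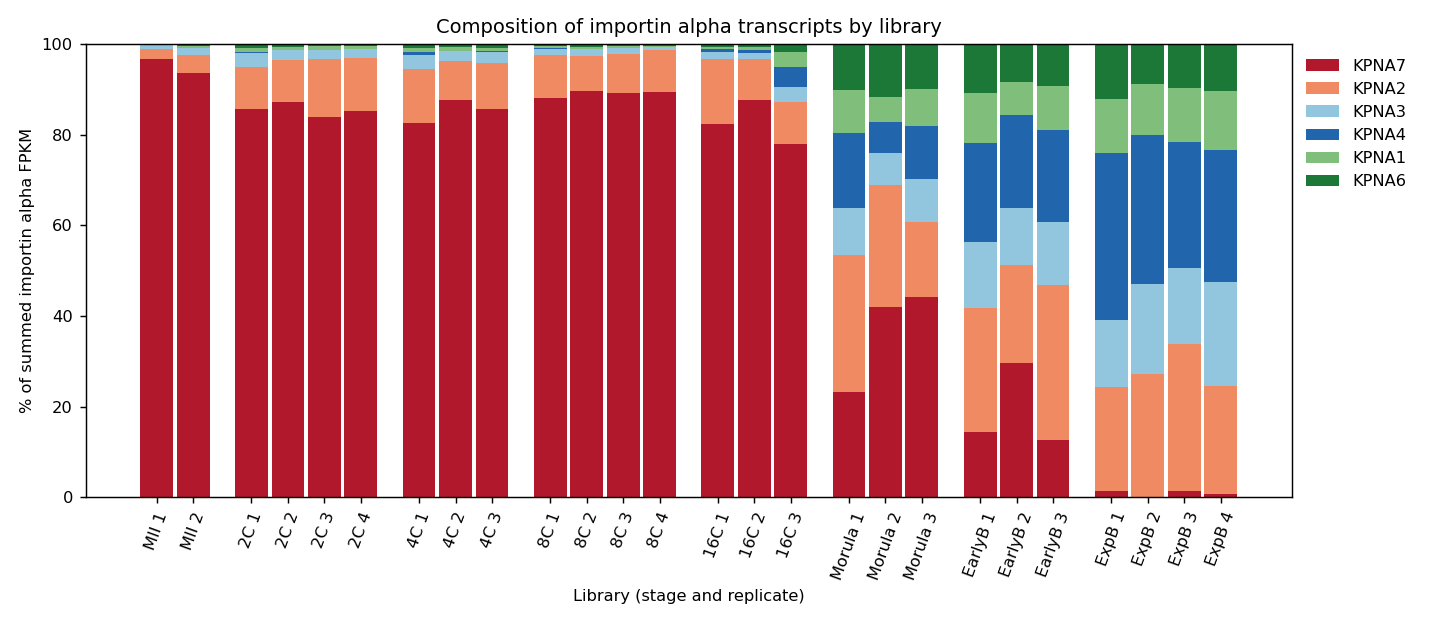
Share (%) of each importin alpha gene in the summed importin alpha FPKM, as 1 stacked bar for each of the 26 libraries, grouped by stage from MII to ExpB. KPNA7 takes 78.0% or more of every bar up to 16C and at most 1.47% in ExpB, where KPNA4, KPNA2 and KPNA3 are the largest parts by mean.

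In ExpB the shares of the somatic forms were 31.7 ± 4.13% for KPNA4, 26.5 ± 4.19% for KPNA2, 18.6 ± 3.58% for KPNA3, 11.98 ± 0.763% for KPNA1 and 10.3 ± 1.45% for KPNA6 (SD, n = 4). Within the somatic importin alpha forms alone, without KPNB1, KPNA2 made up 63.4 ± 1.91% in MII, 80.1 ± 5.37% in 8C, 38.4 ± 8.62% in Morula and 26.8 ± 4.29% in ExpB. KPNA4 made up 31.96 ± 4.18% of them in ExpB and 0.521 ± 0.0302% in MII.

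The sum of the 5 somatic importin alpha genes varied far less than KPNA7 did. That sum was 104 ± 2.67 FPKM in MII, 166 ± 27.8 FPKM in 8C, 221 ± 27.4 FPKM in Morula, 88.6 ± 4.89 FPKM in EarlyB and 79.4 ± 8.49 FPKM in ExpB (mean and SD). With KPNA7 included, the importin alpha sum was 2403 ± 1095 FPKM in MII, 1523 ± 276 FPKM in 8C, 353 ± 62.97 FPKM in Morula and 80.1 ± 8.12 FPKM in ExpB. The somatic sum was thus larger in Morula than in ExpB or MII in every library, and KPNA7 was below it in every Morula, EarlyB and ExpB library and above it in every earlier one. Importin alpha messages stood at 665 times KPNB1 per length in MII, 364 times in 8C, 18.8 times in Morula, 3.19 times in EarlyB and 2.85 times in ExpB.

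**Figure D4:**
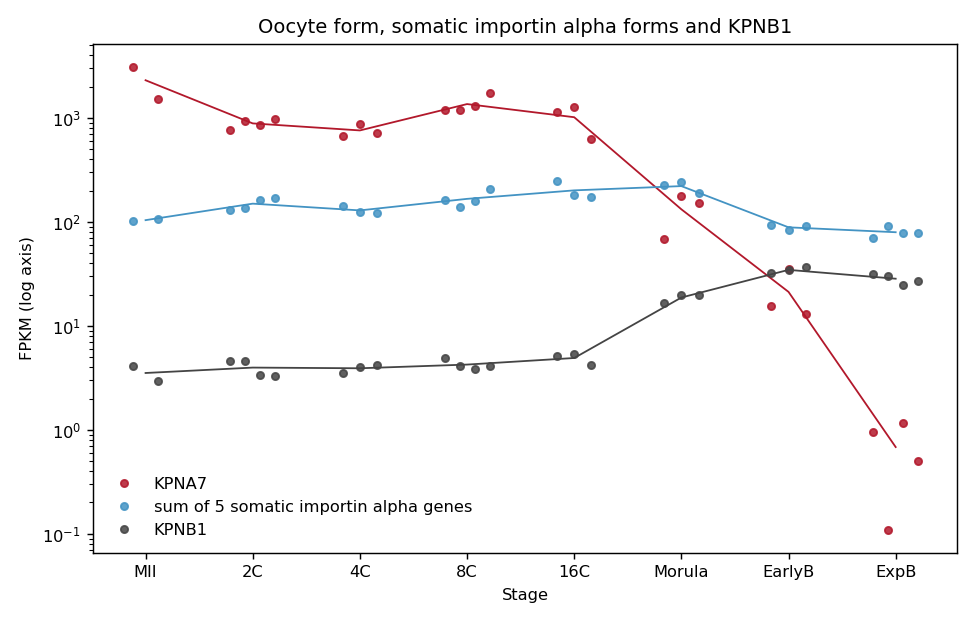
FPKM (log axis) of KPNA7, of the sum of the 5 somatic importin alpha genes and of KPNB1 by stage, MII to ExpB, with points for libraries and lines through stage means. KPNA7 lies below the somatic sum from Morula on, and in Morula all 3 libraries of KPNA7 lie at 176 FPKM or less and the somatic sum is 191 to 244 FPKM, while KPNB1 lies at 16.6 FPKM or more from Morula on.

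By library, KPNA7 was the highest of the 7 genes in all 16 libraries up to 16C, in 2 of 3 Morula libraries and in replicate 2 of EarlyB. KPNA2 was highest in replicate 1 of Morula and replicate 3 of ExpB, and KPNB1 in the other EarlyB and ExpB libraries. In all 4 ExpB libraries each somatic form was above KPNA7.

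Across the 26 libraries some members had similar patterns and others opposite ones. On log2(FPKM + 1), Pearson's r was 0.88 between KPNA7 and KPNA2, 0.85 between KPNA1 and KPNA6, 0.83 between KPNA4 and KPNB1, and 0.79 between KPNA1 and KPNA4. It was -0.90 between KPNA7 and KPNB1, -0.80 between KPNA2 and KPNB1, and -0.73 between KPNA7 and KPNA4. The highest r of KPNA3 with another member was 0.51, with KPNA7. KPNA3 and KPNA4, of 1 subfamily, had an r of -0.09. These r describe 26 libraries that share 8 stages and a common scaling, and carry no p.

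The genes most like KPNA7 over the 26 libraries, among 7357 tested genes with a stage mean of at least 10 FPKM, included genes known from the oocyte. The r were taken over the same levels on which KPNA7 was selected, so this likeness is a description and adds no support. ZP2, a zona pellucida glycoprotein, CPEB1, which binds 3' ends of stored messages and controls their polyadenylation, FOXR1 and LOC121820591 had an r of 0.991, and MOS, the kinase that holds the oocyte in meiotic arrest, 0.990. ZP2 averaged 1.39 FPKM in ExpB and 1347 FPKM in MII, and MOS 0.858 FPKM in ExpB and 649 FPKM in MII. KPNA2 was nearest to UBE2D3, a ubiquitin-conjugating enzyme, and ZCCHC14 (both r = 0.949), and KPNA3 to PSMD12, a proteasome subunit (0.867), and DDX3X, an RNA helicase (0.853). KPNA4 was nearest to LOC101111099 (0.992), LOC101115083 (0.984) and the homeobox repressor TGIF1 (0.982). For KPNA1 they were TMCO1, DPH3 and ACER3 (0.945 to 0.955), for KPNA6 LOC114109700, GPR143 and ZNF554 (0.939 to 0.942), and for KPNB1 LOC121818471 (0.990), the ATP synthase subunit gene ATP5F1C (0.988) and the zinc transporter gene SLC39A4 (0.987).

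Other genes of nuclear transport were counted from lists of import receptors and adaptors (13 tested), exportins (7), the Ran cycle (8) and nucleoporins (28), with KPNA5. NUP210 did not pass the filter, and POM121 was not analysed here. Over these 57 genes, 17 were called higher and 9 lower in Morula against 16C and 12 higher and 16 lower in ExpB against 2C, shares of all genes being 28.1% and 15%, and 30.7% and 23.6%, as above. Without replicate 3 of 16C, 18 were higher and 10 lower in Morula against 16C. EarlyB against Morula gave 6 higher and 8 lower, where 14.7% of all genes were higher and 12.4% lower, and ExpB against EarlyB gave 0 higher and 5 lower, where 4.65% were higher and 13.1% lower. In 16C against 8C 3 were higher and 0 lower (1 higher and 0 lower without replicate 3 of 16C), where 5.54% of all genes were higher and 2.01% lower. In 8C against 4C 1 was higher (NUP62) and 0 lower, against 0.577% and 0.33% of all genes, and 2C against MII gave 4 higher and 2 lower, against 4.44% and 2.01%. In 4C against 2C limma called 0 of 57, with 4 at an unadjusted p under 0.05.

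Of the 13 other import receptors, 6 were called higher and 2 lower in ExpB against 2C, where 30.7% of all genes tested were higher and 23.6% lower. IPO5, which carries ribosomal proteins and core histones, had 90.5 ± 20.8 FPKM in ExpB and 13.1 ± 1.77 FPKM in 2C (SD, n = 4 each), a difference of 2.68 (SE 0.27, adjusted p = 3.6e-09) by limma. IPO9, another histone carrier, and TNPO2, a transportin, rose by 2.29 and 2.21. The highest stage means of IPO9 and TNPO2 were in EarlyB, at 16.3 and 16.9 FPKM, against 8.00 and 7.49 FPKM in ExpB. TNPO1, the transportin that imports RNA-binding proteins, had 6.51 ± 1.04 FPKM in ExpB and 17.7 ± 1.63 FPKM in 2C, a difference of -1.32 (SE 0.20, adjusted p = 2.2e-06), and IPO11 fell by 1.14. In Morula against 16C, 6 of 13 were higher and 0 lower, against 28.1% and 15% of all genes. TNPO3, which imports splicing factors rich in serine and arginine, had 48.03, 39.2 and 47.99 FPKM in Morula and 4.5, 11.7 and 29.8 FPKM in 16C, where replicate 3 was the highest, and its difference was 1.83 (SE 0.34, adjusted p = 7.6e-05), or 2.46 without that replicate, with an adjusted p of 0.06 when these stages were fitted alone. RANBP6 had 6.26, 6.21 and 5.51 FPKM in Morula and 0.0891, 1.09 and 2.96 FPKM in 16C, a difference of 1.75, or 2.21 without replicate 3 of 16C, again the highest of its stage. In 2C against MII, SNUPN, the adaptor that brings spliceosomal snRNPs to importin beta, was the 1 receptor called, with 5.72 ± 0.846 FPKM in 2C (n = 4) and 0.806 ± 0.159 FPKM in MII (n = 2) and a difference of 1.89 (SE 0.32, adjusted p = 0.00053). Thus 1 of the 13 was higher and 0 lower there, against 4.44% and 2.01% of all genes.

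Among the 7 exportins, CSE1L, which returns importin alpha to the cytoplasm, had 39.5, 35.5 and 49.003 FPKM in Morula and 12.7, 12.99 and 22.6 FPKM in 16C, with no overlap and a limma difference of 1.34 (SE 0.25, adjusted p = 8.2e-05), or 1.60 without replicate 3 of 16C. On the TPM scale that difference was 0.9954 and just missed the size threshold. In ExpB it had 40.9, 61.96, 40.5 and 53.5 FPKM, against 48.2, 51.5, 48.1 and 45.8 FPKM in 2C, and the ranges overlapped. In Morula against 16C, 2 of the 7 exportins were called higher and 0 lower, where 28.1% of all genes were higher and 15% lower. XPO6, an exporter of actin, was the other exportin called in Morula against 16C, with a difference of 1.01 (SE 0.27, adjusted p = 0.0024), and that call was lost with each of the 3 other scalings (0.56 to 0.85), in a fit of these stages alone (adjusted p = 0.11) and without replicate 2 (0.87) or 3 (0.74) of 16C or replicate 2 of Morula (0.89). XPO5, the exporter of miRNA precursors, was the 1 exportin called in ExpB against 2C, with a difference of -1.03 (SE 0.18, adjusted p = 2.5e-05) that was -0.98 without replicate 4 of 2C. Thus 0 of the 7 were called higher and 1 lower there, where 30.7% of all genes were higher and 23.6% lower. In 2C against MII, 2 of the 7 were called higher and 0 lower, against 4.44% and 2.01% of all genes. XPO1, the main protein exporter, was called higher in 2C (107 ± 8.298 FPKM, n = 4) against MII (45.4 ± 18.7 FPKM, n = 2), a difference of 1.28 (SE 0.40, adjusted p = 0.042), but that difference was 0.85 with an adjusted p of 0.63 without replicate 1 of MII. The XPO1 call was also lost with no filter (adjusted p = 0.081), with median-ratio scaling (0.11), with the replicate block (0.061), without any 1 of the 4 libraries of 2C (0.058 to 0.082) and without replicate 3 of ExpB (0.051). The call of XPO5 in 2C against MII (1.03) was lost without replicate 1 of MII (0.64, adjusted p = 0.33), without replicate 4 of 2C (0.986), with median-ratio scaling (0.87), with quantile normalization (0.75) and in a fit of these stages alone (adjusted p = 0.064).

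RAN itself rose in Morula against 16C. It had 229.9, 236 and 143 FPKM in Morula and 31.3, 33.5 and 122 FPKM in 16C, where replicate 3 stood well above replicates 1 and 2, and the limma difference was 1.95 (SE 0.33, adjusted p = 2.8e-05), or 2.58 without that replicate. In ExpB it had 176 ± 11.3 FPKM and in 2C 34.8 ± 3.58 FPKM (SD, n = 4 each), a difference of 2.31 (SE 0.29, adjusted p = 1.6e-07). RANBP1, which helps Ran hydrolyse GTP in the cytoplasm, had 375 and 161 FPKM in the MII libraries, 128 ± 16.9 FPKM in 2C and 377 ± 46.8 FPKM in ExpB. Its highest stage mean was 737 ± 76.2 FPKM, in EarlyB (SD, n = 3). For RANBP1 ExpB against 2C gave a difference of 1.55 (SE 0.24, adjusted p = 4.4e-06) that was 0.95 on the TPM scale. RAN and RANBP1 were the 2 of 8 Ran cycle genes called higher in ExpB against 2C, with 0 lower, where 30.7% of all genes were higher and 23.6% lower. In Morula against 16C 4 of 8 were higher and 0 lower, against 28.1% and 15% of all genes: RAN, RCC1, the nucleotide exchange factor of Ran, RANBP1 and RANBP2, a pore filament protein.

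Nucleoporins, the building blocks of the pore, were called in both directions: 3 of 28 were higher and 13 lower in ExpB against 2C, where 30.7% of all genes were higher and 23.6% lower. NUP35, a part of the inner ring, had 21.4, 24.7, 23.8 and 27.98 FPKM in ExpB and 817, 1009.7, 1027 and 1046 FPKM in 2C, a difference of -5.26 (SE 0.17, adjusted p = 1.4e-17) by limma. NUP37 and NUP54 fell by 3.69 and 3.63, to 47.8 ± 17.2 and 23.7 ± 3.66 FPKM in ExpB, against 602 ± 71.3 and 302 ± 17.5 FPKM in 2C (SD, n = 4 each). NUP58, AAAS and NUP85 were the 3 called higher (1.76, 1.30 and 1.06), but AAAS and NUP85 were not called on the TPM scale (0.9955 and 0.60) or with quantile normalization (0.97 and 0.87), nor was NUP85 without replicate 3 of 2C (0.88). In Morula against 16C, 4 were higher and 9 lower, against 28.1% and 15% of all genes. NUP85 was among the higher (2.13, or 2.44 without replicate 3 of 16C) and NUP35 among the lower (-2.34, or -2.35 without it). TPR, the nuclear basket protein, had 47.8 ± 17.2 FPKM in Morula and 9.78 ± 4.57 FPKM in 16C (SD, n = 3 each), a difference of 2.20 (SE 0.27, adjusted p = 3.2e-07), or 2.52 without replicate 3 of 16C. For TPR 16C was the stage of the lowest mean, after 36.6 ± 8.04 FPKM in MII (n = 2) and 32.0 ± 2.77 FPKM in 2C (n = 4). NUP153, of the same basket, had 33.9 ± 6.35 FPKM in Morula and 137 ± 43.6 FPKM in 16C, a difference of -1.95 (SE 0.22, adjusted p = 1.1e-07), or -2.24 without replicate 3 of 16C, the lowest of its stage at 87.8 FPKM. In 2C against MII, NUP205 was higher (1.33, or 0.96 and not called with quantile normalization), and GLE1, an mRNA export factor of the pore (-1.34), and NUP85 (-1.06) were lower. Thus 1 of 28 was called higher and 2 lower there, against 4.44% and 2.01% of all genes. Without replicate 1 of MII the differences of GLE1 and NUP85 were -0.9983 (adjusted p = 0.047) and -0.67 (adjusted p = 0.54), and neither was called. NUP85 was not called on the TPM scale (-0.9973), in a fit of these stages alone (adjusted p = 0.14) or without replicate 3 of 2C (-0.88).

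**Figure D5:**
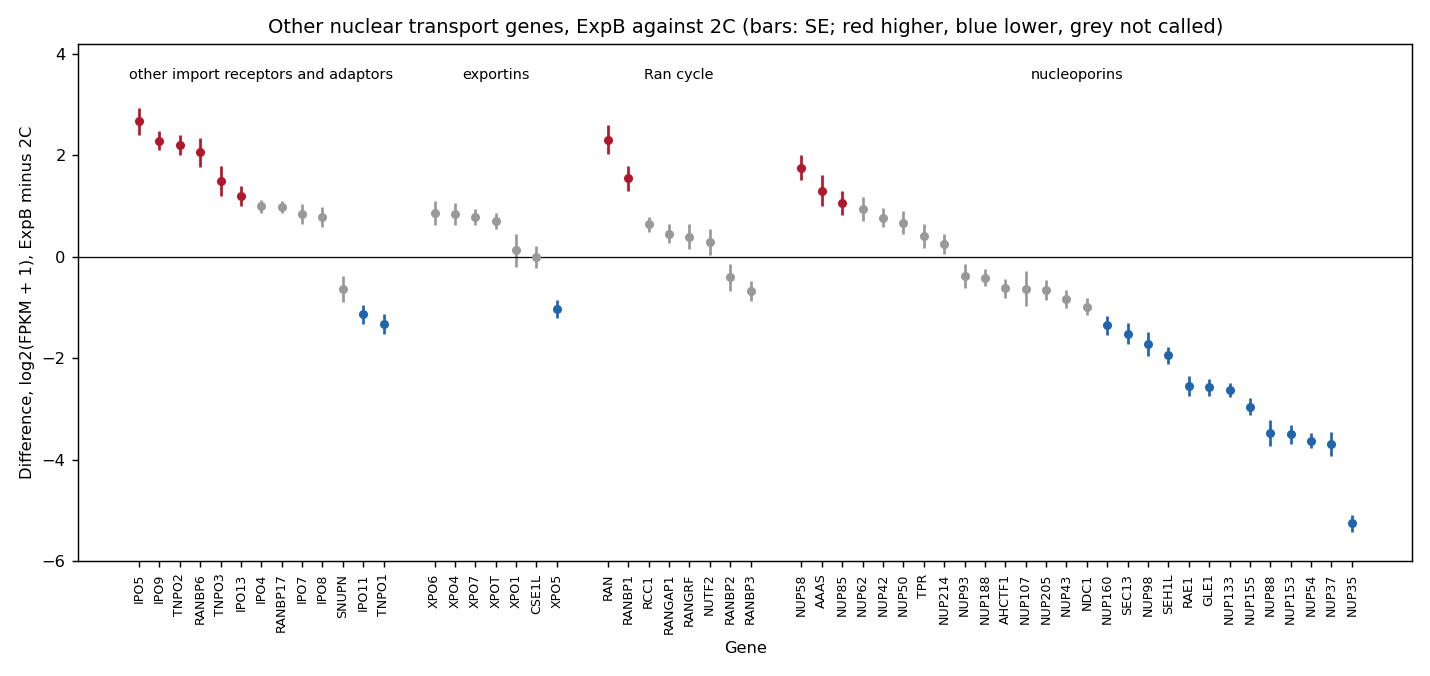
Differences of the other nuclear transport genes tested, without KPNA5, in ExpB against 2C (ExpB minus 2C, log2(FPKM + 1) scale), grouped as import receptors and adaptors, exportins, Ran cycle and nucleoporins, with bars for the standard error, red for called higher, blue for called lower and grey for not called. NUP35 lies lowest at -5.26, and IPO5 and RAN are the highest of their groups at 2.68 and 2.31.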

How the data were processed

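Gene-level FPKM of 26 libraries were used as the authors deposited them; per the submitters' processing notes, featureCounts 2.0.1, SAMtools 1.9, HISAT2 2.1.0 and fastp 0.23.4 were used. The sources used here do not state what each did, the genome build, the annotation, the strand setting or the handling of reads shared by related genes. Reads of close relatives such as KPNA2 and KPNA7 may therefore have been split or dropped in counting. Depth was recovered from the steps of low FPKM values of small RNA genes, 99.7% to 100% of which came within 0.05 of a whole read (up to 20 reads), and a member's reads follow from the gene length that made its values whole. This recovery, and the fit below, were tested on simulated data with known answers.

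Values were set to log2(FPKM + 1), and genes with at least 1 FPKM in at least 2 libraries were kept (15766 of 30186). A model of 8 stage means over all 26 libraries was fitted with limma 3.58.1 in R 4.3.3 (eBayes with trend, 18 residual degrees of freedom), and p-values were adjusted by Benjamini-Hochberg over all genes tested. A gene was called at an adjusted p under 0.05 and a difference of at least 1, later stage minus earlier. KPNA7 was not tested. Stages are those of the labels. The files hold FPKM where a count test would need counts, so none was run. Pathway genes named are, per list and direction, up to 3 called with the greatest difference in ExpB against 2C and up to 2 in each of 2C against MII and Morula against 16C; NUP62 was named after its value was seen. Members, lists and tests were chosen with earlier results of these data known. Alternatives were the pseudocount, the filter, the scaling, the libraries fitted, the variance trend, a replicate block and leaving out each library. No sequences are shown, since none was among the material used here.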

Additional observations from a re-analysis of the deposited data

Results flagged for a closer look

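In stages of 4 libraries, 4 of 99 groups of values had a library far from the other 3, and chance alone flags about 1 in 20 groups. None was a value of KPNA7 or of another of the 7 importin genes. GLE1 had 38.4 FPKM in replicate 3 of 8C, where the other 3 libraries had 46.0 to 47.4 FPKM. NUP35 had 817 FPKM in replicate 1 of 2C, against 1009.7 to 1046 FPKM in the other 3, and 749 FPKM in replicate 2 of 8C, against 889 to 899.9 FPKM in the others. XPO1 had 44.3 FPKM in replicate 4 of 8C, where the others had 79.2 to 86.4 FPKM.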

How the results depend on the processing

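Alternatives were run for each of the 7 importin genes and for the transport genes named by rule in the comparisons that named them, and no called difference of these changed sign. Among the 6 somatic forms, the count called in 16C against 8C was 2 with a pseudocount of 0.1 and 0 with only the stages compared, that in Morula against 16C was 2 with only the stages compared, and that in EarlyB against Morula was 5 (1 higher and 4 lower) with quantile normalization. Among the other transport genes, the count in 8C against 4C was 0 with no filter, with the TPM scale, with quantile normalization and with only the stages compared, that in 16C against 8C was 5 with median-ratio scaling and 0 with only the stages compared, and that in ExpB against EarlyB was 12 with a pseudocount of 0.1, 3 (2 higher and 1 lower) with median-ratio scaling and 2 (1 higher and 1 lower) with quantile normalization. Leaving out 1 library at a time gave 1 to 2 calls for the somatic forms in 16C against 8C, 3 to 4 in Morula against 16C, 3 to 4 in EarlyB against Morula and 3 in ExpB against 2C, with 0 in the remaining comparisons. For the other transport genes it gave 2 (without replicate 1 of MII) to 9 in 2C against MII, 0 in 4C against 2C, 0 to 3 in 8C against 4C, 1 (without replicate 3 of 16C) to 11 (without replicate 1 of 16C) in 16C against 8C, 24 to 28 in Morula against 16C, 12 to 16 in EarlyB against Morula, 4 to 7 in ExpB against EarlyB and 28 to 31 in ExpB against 2C. The KPNA7 share ranged over 93.5% to 96.8% in MII, 84.9% to 86.0% in 2C, 84.1% to 86.6% in 4C, 88.9% to 89.3% in 8C, 80.1% to 84.9% in 16C, 32.6% to 43.1% in Morula, 13.5% to 22.0% in EarlyB and 0.699% to 1.15% in ExpB. By the median the replicate numbers showed no pairing of the libraries. Deviations from the stage means of 80 same-numbered pairs had a median r of 0.004, with 13 over 0.1 and a highest r of 0.396. Those of 214 other pairs had a median r of -0.005, with 21 over 0.1 and a highest r of 0.338. Whether single libraries were paired was not tested. With the replicate block, the transport genes called were 0 in 8C against 4C and 8 in ExpB against EarlyB. KPNA7 in 2C against MII was -1.13 on the TPM scale, -1.02 with quantile normalization, -1.56 with median-ratio scaling, -0.79 without replicate 1 of MII and -1.80 without replicate 2, and in ExpB against 2C it was -10.42 with a pseudocount of 0.1. Over all genes, the split of higher to lower calls was 700 to 317 in 2C against MII (1366 to 287 on the TPM scale, 413 to 600 with median-ratio scaling, 361 to 443 with quantile normalization), 91 to 52 in 8C against 4C (51 to 76 with median-ratio scaling, 54 to 78 with quantile normalization), 874 to 317 in 16C against 8C (1003 to 768 on the TPM scale), 4437 to 2364 in Morula against 16C (4268 to 3501 on the TPM scale, 3054 to 3263 with quantile normalization) and 733 to 2060 in ExpB against EarlyB (1225 to 915 and 1256 to 1049 with median-ratio and quantile scaling). The median difference of all genes in Morula against 16C, 0.32, was 0.18, 0.19 and -0.01 under the TPM, median-ratio and quantile scalings. In ExpB the 5 to 51 reads of KPNA7 limit its level. The causes of these changes were not tested.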
